A study of Mus musculus with 6 samples.

Results

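Lgr4, Lgr5, Rnf43, Znrf3, Axin2, Nkd1, Notum, Tnfrsf19, Sp5 and Apcdd1 are receptors for R-spondins and inhibitors or targets that stand in the feedback of Wnt signaling. These 10 genes were picked by name among the 21397 genes of a table of RNA sequencing values, and every name was found. The RNA came from small intestinal organoids, which are crypts grown in Matrigel as closed epithelial cultures, made from Fpr2f/f mice. This floxed allele was carried by both groups, and no Cre is named for these cultures. The agent was MMK-1, a peptide made to activate the receptor FPR2. The MMK-1 group received it at 1 μmol/L for 5 days, and the Control group received the vehicle, 0.1% DMSO, for 5 days. One label of the MMK-1 samples gives the dose in mmol/L, and the dose of the protocol was used here. Each group had 3 libraries, 6 in all. The study describes a sample as organoids of several mice and does not say whether the samples of a group came from separate mice, so that p-values measure only the spread between these samples, which may be technical. The age and the sex of the mice are not given in the labels.

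Wnt ligands bind Frizzled receptors together with the coreceptors LRP5 and LRP6, which stops the destruction of beta-catenin and lets it act with TCF factors on target genes. RNF43 and ZNRF3 are membrane ubiquitin ligases that remove Frizzled from the cell surface, and R-spondins bound to LGR4 or LGR5 take these ligases away and so keep Frizzled in place. AXIN2, NKD1, NOTUM and APCDD1 dampen the pathway at other steps, and several genes of the set are themselves targets of beta-catenin and TCF. In the intestine the pathway is known for keeping the stem cells at the crypt base, of which Lgr5 is the classical marker.

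Levels are given as FPKM, the fragments on a gene per kilobase of its length and per fixed number of fragments in the library, so that genes can be compared within a library. The whole fragments behind each FPKM value were recovered, and the libraries held between 35512739 and 37537463 of them. Genes entered the test where their mean FPKM reached 1, which left 10551. Their differences were fitted with limma-trend on log2(FPKM + 1), a scale on which the change of a gene with a low level is understated. MMK-1 replicate 3 stood apart within its group, with a chi-square per gene of 36.6 and 31.3 against the other MMK-1 libraries, where the remaining pairs of replicates gave 2.84 to 4.97. The median log2 difference of all genes tested was 0.13, and upper-quartile scaling moved it by -0.14, to -0.0036. Of all calls at an adjusted p of at most 0.05, 66.3% were higher with MMK-1 as the values were deposited and 48.5% after this scaling (5118 higher and 2606 lower against 3673 higher and 3905 lower).

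Of the 10 genes, 6 had a mean FPKM of at least 1 and were tested. MMK-1 upregulated 5 of them, Lgr5, Axin2, Znrf3, Rnf43 and Lgr4, and downregulated 1, Apcdd1, in the limma test at a threshold of 0.05 on the Benjamini-Hochberg adjusted p. In this comparison 48.5% of all genes tested were called higher and 24.7% were called lower, so that a call alone was common. The median log2 difference of the 6 genes was 0.61. A stricter rule asked for a fold change of at least 2 beside an unadjusted p up to 0.05. By it 2 of the 6 were called, Lgr5 and Axin2, where 3.39% of all genes tested were called higher. Control and MMK-1 values were fully separate in all 6 tested genes, and among all genes tested 76.8% did not overlap. Of the 4 genes below the filter, Notum was the one whose groups overlapped, and the share over all genes at such low levels was not computed. Nkd1, Notum, Tnfrsf19 and Sp5 lay below the filter and are described by their fragments. In RNA of whole organoids, a larger share of cells that express a gene cannot be told apart from more RNA of that gene per cell.

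**Figure D1:**
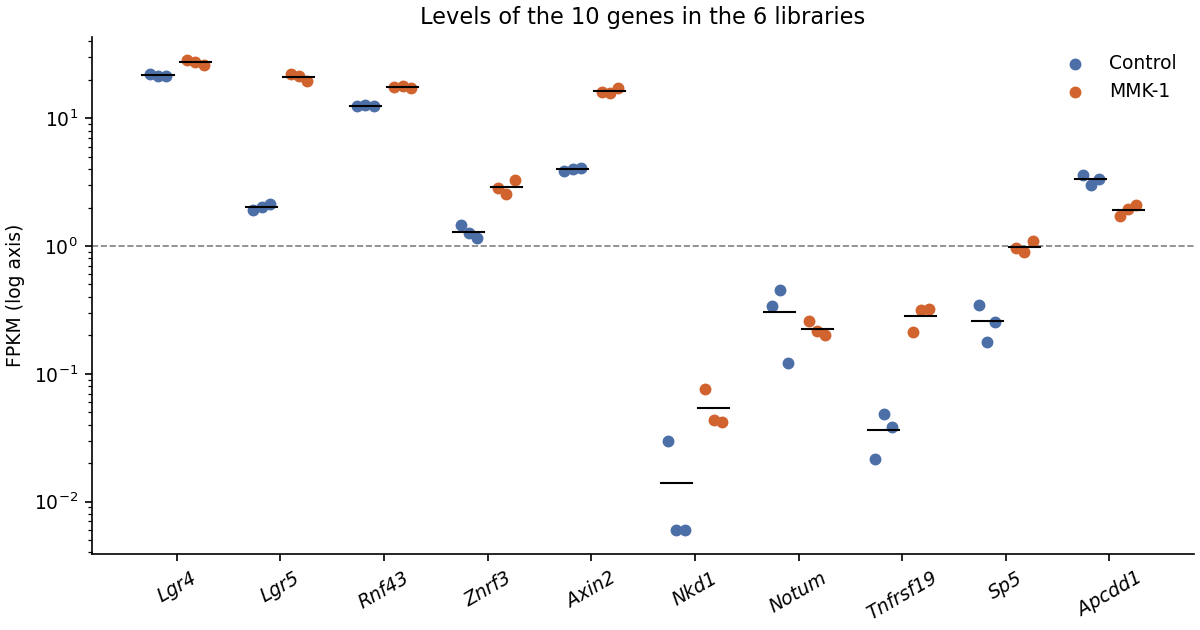
FPKM (log axis) of the 10 genes in the 3 Control libraries (blue) and the 3 MMK-1 libraries (orange), with a black line at each group mean and a dashed line at an FPKM of 1. Lgr5 lies between 1.92 and 2.14 in Control and between 19.6 and 22.1 with MMK-1, while Apcdd1 is the gene whose MMK-1 libraries all lie lower and Notum the gene whose groups overlap.

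Lgr4 and Lgr5 encode receptors that bind R-spondins with their leucine-rich repeats. Lgr5 (NCBI gene 14160, chromosome 10, 115450311 to 115587780 of GRCm38, minus strand) was the gene of the set with the largest change. Its FPKM was 1.92, 2.03 and 2.14 in Control and 22.1, 21.2 and 19.6 with MMK-1. These levels rest on 338, 359 and 377 fragments in Control and on 3702, 3595 and 3438 with MMK-1. Every MMK-1 library was thus far above every Control library. The mean was 2.03 ± 0.113 (SD, n = 3) in Control organoids and 21.0 ± 1.26 (SD, n = 3) in MMK-1-treated organoids, a ratio of 10.4. The log2 difference was 2.86 with a standard error of 0.0574 (95% interval 2.73 to 2.99, adjusted p = 3.2e-09 in the limma test), and only 3 of the genes tested had a higher one.

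Lgr4 (NCBI gene 107515, chromosome 2, 109917647 to 110014257, plus strand) was the most abundant gene of the set in both groups. Its FPKM was 22.1, 21.6 and 21.4 in Control and 28.4, 27.8 and 26.1 with MMK-1, from 4108 to 5186 fragments a library. The groups did not overlap, and the ratio of the means was 1.27. The log2 difference was 0.33 (limma, standard error 0.0451, adjusted p = 2.0e-04), and 3323 genes had a higher one. After upper-quartile scaling it was 0.17 (adjusted p = 0.0103 in the limma test), after removal of a trend with gene length 0.14 (adjusted p = 0.0143), and after removal of a trend with GC content 0.18, so that the size of the change of Lgr4 depended on the scaling by more than 1.5 times while its direction and call were kept.

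The receptors therefore changed by different amounts, which was also seen within each library, where scaling between libraries has no part. The ratio of Lgr5 to Lgr4 in FPKM was 0.0868, 0.0940 and 0.1000 in Control and 0.778, 0.765 and 0.753 with MMK-1. On the log2 scale the ratio was higher by 3.03 with MMK-1 (exact two-sided permutation p = 0.1, adjusted over 4 ratios 0.1), and 0.1 is the smallest p that 3 libraries against 3 allow. Lgr5 made up 8.56% ± 0.552 (SD, n = 3) of the summed FPKM of both receptors in Control and 43.3% ± 0.403 (SD, n = 3) with MMK-1. The sum itself was 23.7 ± 0.230 (SD, n = 3) in Control and 48.4 ± 2.46 (SD, n = 3) with MMK-1, a ratio of 2.04.

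**Figure D2:**
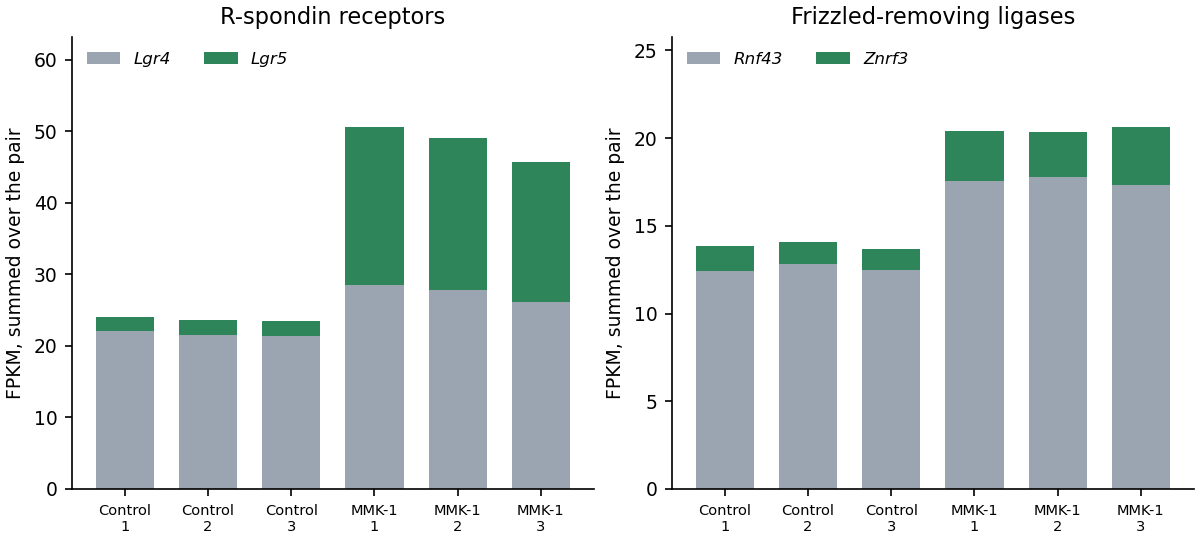
FPKM of the receptors Lgr4 and Lgr5 (left) and of the ligases Rnf43 and Znrf3 (right), stacked as bars for each of the 6 libraries, with axes that start at 0. The sum of the receptors is 23.5 to 24.0 in Control and 45.8 to 50.6 with MMK-1, with most of the added level in Lgr5, and the sum of the ligases is 13.7 to 14.1 in Control and 20.3 to 20.6 with MMK-1.

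Rnf43 and Znrf3 encode the ligases on which the receptors act. Rnf43 (NCBI gene 207742, chromosome 11, 87662722 to 87735539, plus strand) had an FPKM of 12.4, 12.8 and 12.5 in Control and of 17.6, 17.8 and 17.3 with MMK-1. Its replicates differed by no more than counting noise, with a chi-square per degree of freedom of 0.589 in Control and 0.397 with MMK-1, and the groups were well apart. The ratio of the means was 1.40 and the log2 difference 0.45 (limma, standard error 0.0401, 95% interval 0.360 to 0.543, adjusted p = 1.2e-05). After upper-quartile scaling the difference was 0.30 (adjusted p = 1.6e-04), and after removal of the trend with gene length it was 0.28 (adjusted p = 2.1e-04), smaller than the value as deposited by more than 1.5 times.

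Znrf3 (NCBI gene 407821, chromosome 11, 5276324 to 5444847, minus strand) was present at a lower level than Rnf43 in every library. Its FPKM was 1.45, 1.27 and 1.16 in Control and 2.82, 2.58 and 3.28 with MMK-1, so that all MMK-1 libraries were higher but less even than for Rnf43. The chi-square per degree of freedom among replicates was 4.91 in Control and 12.2 with MMK-1. The ratio of the means was 2.24, and the log2 difference was 0.76 (standard error 0.0815, limma adjusted p = 4.0e-05). The lower level of Znrf3 makes this scale understate its change, since a fit on the fragments with limma-voom gave 1.16 (adjusted p = 9.6e-06) and placed Znrf3 past a fold change of 2.

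Rnf43 thus held a smaller share of the ligase transcripts with MMK-1. The ratio of Rnf43 to Znrf3 in FPKM was 8.54, 10.1 and 10.8 in Control and 6.23, 6.89 and 5.30 with MMK-1, a log2 difference of -0.68 (exact two-sided permutation p = 0.1, adjusted 0.1). Rnf43 made up 90.7% ± 1.04 (SD, n = 3) of both ligases in Control and 85.9% ± 1.63 (SD, n = 3) with MMK-1. The summed ligase FPKM was 13.9 ± 0.209 (SD, n = 3) in Control and 20.5 ± 0.152 (SD, n = 3) with MMK-1, a ratio of 1.47.

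Receptor and ligase transcripts were then set against each other in the same library. The sum of Lgr4 and Lgr5 over the sum of Rnf43 and Znrf3 was 1.73, 1.68 and 1.72 in Control and 2.48, 2.41 and 2.22 with MMK-1. The groups did not overlap (exact two-sided permutation p = 0.1, the smallest possible). Lgr5 alone was at 0.154, 0.158 and 0.171 of the level of Rnf43 in Control and at 1.26, 1.20 and 1.13 of it with MMK-1. The log2 difference of this ratio was 2.89, and Lgr5 passed Rnf43 in all 3 MMK-1 libraries and in none of the Control libraries.

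Axin2 encodes a scaffold of the complex that destroys beta-catenin and is widely read as a direct target of the pathway. It lies on chromosome 11 (NCBI gene 12006, 108920349 to 108950783, plus strand). The FPKM of Axin2 was 3.87, 3.98 and 4.09 in Control and 16.0, 15.9 and 17.3 with MMK-1, from 772, 796 and 816 fragments in Control and 3023, 3045 and 3428 with MMK-1. The Control libraries differed by no more than counting noise (chi-square per degree of freedom 0.654), and MMK-1 replicate 3 was the highest of the MMK-1 libraries. The ratio of the means was 4.12 and the log2 difference 1.80 (limma, standard error 0.0503, 95% interval 1.69 to 1.92, adjusted p = 1.6e-08), with 39 of the genes tested above it. Lgr5 and Axin2 changed by different amounts. The ratio of Axin2 to Lgr5 was 2.02, 1.96 and 1.91 in the Control libraries and 0.721, 0.748 and 0.881 with MMK-1, a log2 difference of -1.33 (exact two-sided permutation p = 0.1, adjusted 0.1). Of the exon bases of Axin2 in GENCODE, 209 of 5506 are shared with an antisense gene, Gm11670, and whether the counting used the strand is not given in the sources used here.

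Apcdd1 encodes a membrane glycoprotein that binds Wnt and LRP5 and inhibits the pathway, and it was the gene of the set that was lower with MMK-1. It lies on chromosome 18 (NCBI gene 494504, 62922231 to 62961179, plus strand). Its FPKM was 3.63, 3.01 and 3.34 in Control and 1.70, 1.96 and 2.09 with MMK-1, from 568, 472 and 522 fragments in Control and 253, 294 and 325 with MMK-1. All MMK-1 libraries were below all Control libraries, and the mean fell by 42.3%. The log2 difference was -0.57 (limma, standard error 0.0751, 95% interval -0.74 to -0.40, adjusted p = 1.5e-04), and 878 of the genes tested had a lower one. It was -0.68 after upper-quartile scaling and -0.79 with limma-voom on the fragments.

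**Figure D3:**
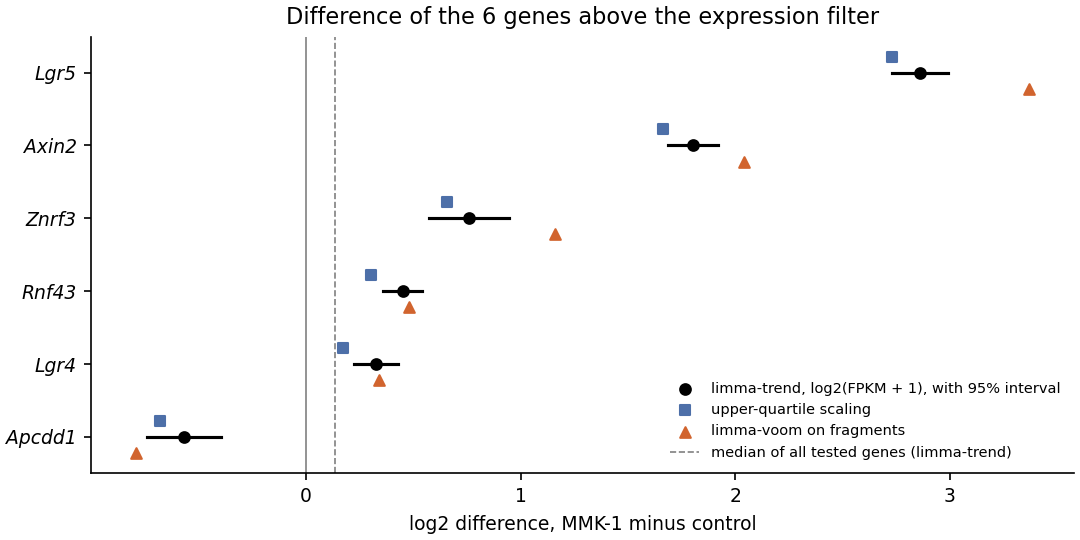
Log2 difference (MMK-1 minus Control) of the 6 tested genes, with black points and 95% intervals from limma-trend on log2(FPKM + 1), blue squares after upper-quartile scaling and orange triangles from limma-voom on fragments. The dashed line marks the median of all genes tested, 0.13, and Lgr4 at 0.33 lies nearest to it while Lgr5 lies at 2.86 and Apcdd1 at -0.57.

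Sp5, Tnfrsf19, Nkd1 and Notum had few fragments in all libraries. Sp5, a zinc finger transcription factor and target of Wnt signaling in many tissues (NCBI gene 64406, chromosome 2, 70474923 to 70477729, plus strand), had 27, 14 and 20 fragments in Control and 72, 68 and 85 with MMK-1. These correspond to an FPKM of 0.344, 0.178 and 0.255 and of 0.967, 0.903 and 1.09. The libraries of the groups were well apart, and the ratio of the fragment rates was 3.82, with an exact 95% interval of 2.86 to 5.15 that covers counting error only. Tnfrsf19, also called Troy, a receptor of the tumor necrosis factor family that marks Wnt-responsive cells (NCBI gene 29820, chromosome 14, 60963875 to 61046490, minus strand), had 4, 9 and 7 fragments in Control and 37, 56 and 59 with MMK-1. Its rate ratio was 7.87 (exact 95% interval 4.92 to 13.2), the second largest ratio of the set after that of Lgr5.

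Nkd1, which binds Dishevelled and restrains the pathway inside the cell (NCBI gene 93960, chromosome 8, 88521354 to 88594884, plus strand), was hardly detected, with 5, 1 and 1 fragments in Control and 12, 7 and 7 with MMK-1. The groups did not overlap, and the rate ratio was 3.84 with a wide exact 95% interval of 1.62 to 10.5. Notum, a secreted enzyme that removes the lipid from Wnt ligands (NCBI gene 77583, chromosome 11, 120653788 to 120661175, minus strand), had 44, 59 and 16 fragments in Control and 32, 27 and 26 with MMK-1. The Control libraries of Notum spread far more than counting noise (chi-square per degree of freedom 11.9) and enclosed the MMK-1 libraries (exact two-sided permutation p = 0.6). Of the exon bases of Notum in GENCODE, 708 of 2408 are shared with the antisense gene Notumos and 210 with the antisense gene Myadml2os. The FPKM of Notum imply a length of 3493 bases, so the exons counted were not these and their shared part may differ.

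A limma-trend fit without the filter, over 20676 genes, gave these 4 genes a test. Sp5 (log2 difference 0.66, adjusted p = 4.4e-04), Tnfrsf19 (0.31, adjusted p = 0.00119) and Nkd1 (0.06, adjusted p = 0.0415) were called higher, and Notum (-0.08, adjusted p = 0.544) was not called. With them 8 of the 10 genes were called higher and 1 lower in this fit, where 28.1% of all genes were called higher and 3152 genes lower. That share includes genes with almost no fragments. Among genes above the filter, which hold 6 of the 10, 48.5% were called higher in the main fit. The call of Nkd1 was lost after upper-quartile scaling (adjusted p = 0.0591) and without any 1 of 5 libraries, Control replicates 2 and 3 and each MMK-1 replicate (adjusted p = 0.0512 to 0.125), and it was kept without Control replicate 1. With limma-voom on the fragments and no filter, Nkd1 was called higher (log2 difference 1.99, adjusted p = 0.0165), and Notum was not called (-0.25, adjusted p = 0.670). In that fit the log2 difference was 2.93 for Tnfrsf19 and 1.95 for Sp5. Without Control replicate 3, which had 16 fragments, Notum was called lower (log2 difference -0.19, adjusted p = 0.0308), so that its state rested on this library.

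**Figure D4:**
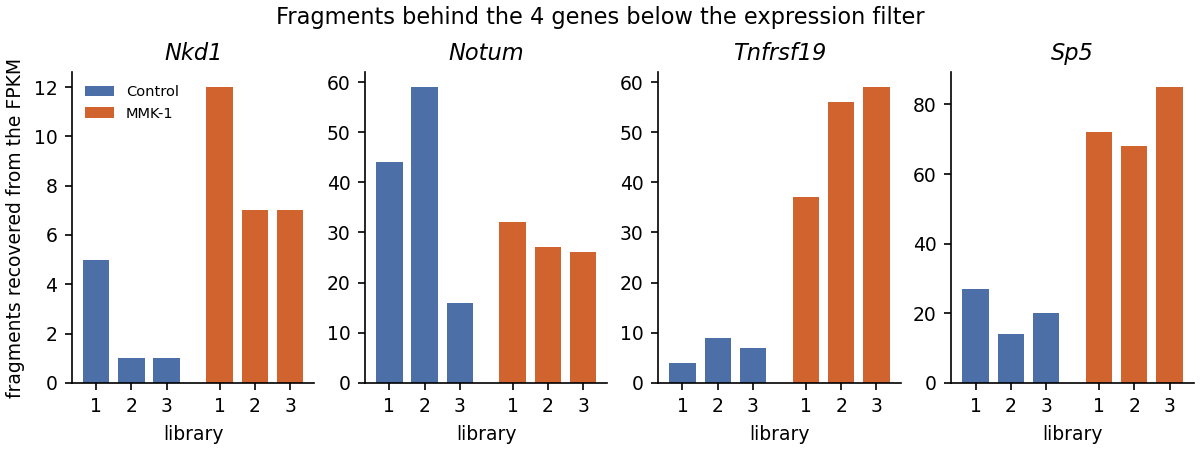
Fragments of Nkd1, Notum, Tnfrsf19 and Sp5 recovered from the FPKM, as bars for the 3 Control libraries (blue) and the 3 MMK-1 libraries (orange), each panel with its own axis from 0. Tnfrsf19 holds 4 to 9 fragments in Control and 37 to 59 with MMK-1, while for Notum the Control libraries at 16 to 59 enclose the MMK-1 libraries at 26 to 32.

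Promoter sequence from RefSeq on GRCm38.p6, 250 bases before to 50 after each start, was searched for 6 of the 10 genes. These were Lgr4, Rnf43, Axin2, Nkd1, Tnfrsf19 and Sp5, in 8 windows since Rnf43 and Tnfrsf19 have 2 starts each. The other 4 genes were not searched, and the gene of the set that was lower with MMK-1 is among them. The windows were searched on both strands for letters that TCF and LEF factors are known to bind, in the form CTTTGAA, the form CTTTGAT, the form CTTTGTA or the form CTTTGTT, and for the AP-1 letters TGAGTCA. The TCF and LEF letters were present in 2 of the 8 windows, that of Sp5 and 1 of Tnfrsf19, and 16.9% of all 32851 promoter windows hold them. The AP-1 letters were present in 0 of the 8 windows and in 5.20% of all. The 250 bases before the start are shown for both genes with a match and for Axin2, the gene with the second largest fitted change, whose window has none. Capitals mark the matched letters, which stand 222 and 104 bases before the start of Sp5 (CTTTGTT on the opposite strand, CTTTGAT on the strand of the gene) and 202 bases before that of Tnfrsf19 (CTTTGAT on the opposite strand).
Sp5, chr2:70474673-70474922, plus strand: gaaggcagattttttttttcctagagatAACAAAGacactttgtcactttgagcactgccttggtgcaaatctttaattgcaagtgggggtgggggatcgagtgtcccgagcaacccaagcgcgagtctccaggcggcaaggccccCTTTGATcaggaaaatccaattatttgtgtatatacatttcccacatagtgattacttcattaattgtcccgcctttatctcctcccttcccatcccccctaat
Tnfrsf19, chr14:61037988-61038237, minus strand: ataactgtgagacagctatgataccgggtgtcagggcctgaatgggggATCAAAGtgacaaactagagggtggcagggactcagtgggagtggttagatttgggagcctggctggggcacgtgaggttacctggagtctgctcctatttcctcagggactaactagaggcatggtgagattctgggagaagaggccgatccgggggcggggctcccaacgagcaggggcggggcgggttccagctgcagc
Axin2, chr11:108920099-108920348, plus strand: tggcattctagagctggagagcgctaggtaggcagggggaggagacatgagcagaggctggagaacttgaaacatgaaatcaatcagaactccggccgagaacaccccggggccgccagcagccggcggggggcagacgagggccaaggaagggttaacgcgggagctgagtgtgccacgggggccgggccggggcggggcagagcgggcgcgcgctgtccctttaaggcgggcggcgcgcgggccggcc
A match describes letters in a window and is no bound site, and windows without one say nothing of TCF factors. The FPKM ratios of Sp5 and Tnfrsf19 were 3.81 and 7.85 and that of Axin2 was 4.12, so that genes with and without the letters in these windows were higher with MMK-1.

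The order of the levels differed between the groups. In Control it ran from Lgr4 over Rnf43, Axin2, Apcdd1, Lgr5 and Znrf3 to Notum, Sp5, Tnfrsf19 and Nkd1. Notum and Sp5 overlapped, as did Tnfrsf19 and Nkd1, and the other neighbours in this order did not. With MMK-1 the order was Lgr4, Lgr5, Rnf43, Axin2, Znrf3, Apcdd1, Sp5, Tnfrsf19, Notum and Nkd1, in which Tnfrsf19 and Notum were the only neighbours that overlapped. Lgr5 moved from the fifth place to the second, and Apcdd1 moved from the fourth place to the sixth, below Znrf3.

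Of the 10 genes, 4 lie on chromosome 11 (Rnf43, Znrf3, Axin2 and Notum) and 2 on chromosome 2 (Lgr4 and Sp5). The annotation restates in part how the genes were picked, as KEGG places 8 of them among its 154 genes of Wnt signaling, all but Tnfrsf19 and Sp5. Rnf43 and Znrf3 are the only 2 genes of the table under Wnt receptor catabolic process, and 5 of the 47 genes under negative regulation of Wnt signaling are in the set. The lengths implied by the FPKM values run from 2097 bases in Sp5 to 7659 in Znrf3, with a median of 4624.5 against 3394 over all genes tested.

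The 5 tested genes nearest to Lgr5 were taken by the Euclidean distance of the 6 values of log2(FPKM + 1) after centring on the Control mean. They were Lypd8l (distance 0.53), Cnn3 (0.53), Itln1 (0.60), Tnfrsf23 (0.84) and Cybrd1 (0.88). Lypd8l and Tnfrsf23 passed the filter through the MMK-1 group alone, with Control means of 0.717 and 0.685. Itln1, a lectin of Paneth cells, was at a higher level than Lgr5, with an FPKM of 50.9 ± 1.41 (SD, n = 3) in Control and 300 ± 13.9 (SD, n = 3) with MMK-1. Tnfrsf23, like Tnfrsf19 a member of the tumor necrosis factor receptor family, had 0.685 ± 0.0967 (SD, n = 3) in Control and 7.87 ± 0.298 (SD, n = 3) with MMK-1. The list orders patterns by likeness and says nothing of shared control.

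Other parts of the pathway were read from lists of ligands, receptors, cytoplasmic components, nuclear factors, antagonists and targets. Of the R-spondin ligands measured, Rspo1 had 0 fragments in all libraries, Rspo3 had 1 fragment in 1 MMK-1 library, and Rspo4 had 4, 6 and 2 fragments in Control and 7, 21 and 15 with MMK-1, too few to pass the filter. Of the 16 Wnt ligands and secretion factors in the table, 3 were tested and called higher, namely Wnt3 (log2 difference 0.92), Porcn (0.59), which adds the lipid to Wnt ligands, and Wls (0.53), which carries them to the surface. Wnt3, a ligand made by Paneth cells, had 45, 46 and 84 fragments in Control and 232, 186 and 227 with MMK-1, and it passed the filter through the MMK-1 group alone.

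Of receptors and coreceptors, 4 of 9 tested genes were higher and 1 lower, a share close to that of 48.5% higher among all genes tested. After upper-quartile scaling 3 were higher and 2 lower, where 34.8% of all genes tested were higher. Fzd7 (0.81) and Ror2 (0.64) had the largest rises, Fzd8 (-0.46) was lower, and Lrp6 had a log2 difference of -0.07 that was not called as deposited and of -0.22 that was called lower after upper-quartile scaling (adjusted p = 0.00210 in the limma test). The median of this list was 0.13 and turned to -0.02 after upper-quartile scaling, with 3 of its genes, Fzd4, Fzd5 and Ryk, changing direction. Among beta-catenin and the genes of its destruction complex, 10 of 14 were higher and 1 lower, with Apc (0.68) and Tnks2 (0.59), a tankyrase that marks Axin for destruction, the highest and Btrc (-0.17), which passed the filter through the Control group alone, the lowest. After upper-quartile scaling 7 of these 14 were higher and 3 lower, and 4 changed direction. Ctnnb1, which encodes beta-catenin, had an FPKM of 193 ± 2.36 (SD, n = 3) in Control and 194 ± 1.06 (SD, n = 3) with MMK-1 and was not called as deposited (log2 difference 0.01, adjusted p = 0.875 in the limma test), but it was called lower after upper-quartile scaling (-0.15, adjusted p = 0.00205).

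Of TCF factors and cofactors, 6 of 7 were higher with a median of 0.45, led by Bcl9 (0.68) and Tle3 (0.61), and 5 were higher and 1 lower after upper-quartile scaling. Of the other antagonists 4 were tested and 2 were higher, Igfbp4 (0.98) and Kremen1 (0.34), while Cby1 (-0.13) and Ctnnbip1 (0.16) were not called. After upper-quartile scaling 2 were higher and 1 lower, the latter being Cby1 (-0.27, adjusted p = 0.00224 in the limma test). All 7 tested genes of the list of other crypt targets were higher with both scalings, with a median of 1.02 as deposited, and Ephb3 (1.72) and Ccnd1 (1.51) had the largest differences. Ephb3 passed the filter through the MMK-1 group alone, and the other 6 had a median of 0.98. These medians stand beside 0.13 over all genes tested. The counts stand beside 48.5% higher and 24.7% lower over all genes tested, or 34.8% and 37% after upper-quartile scaling.

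**Figure D5:**
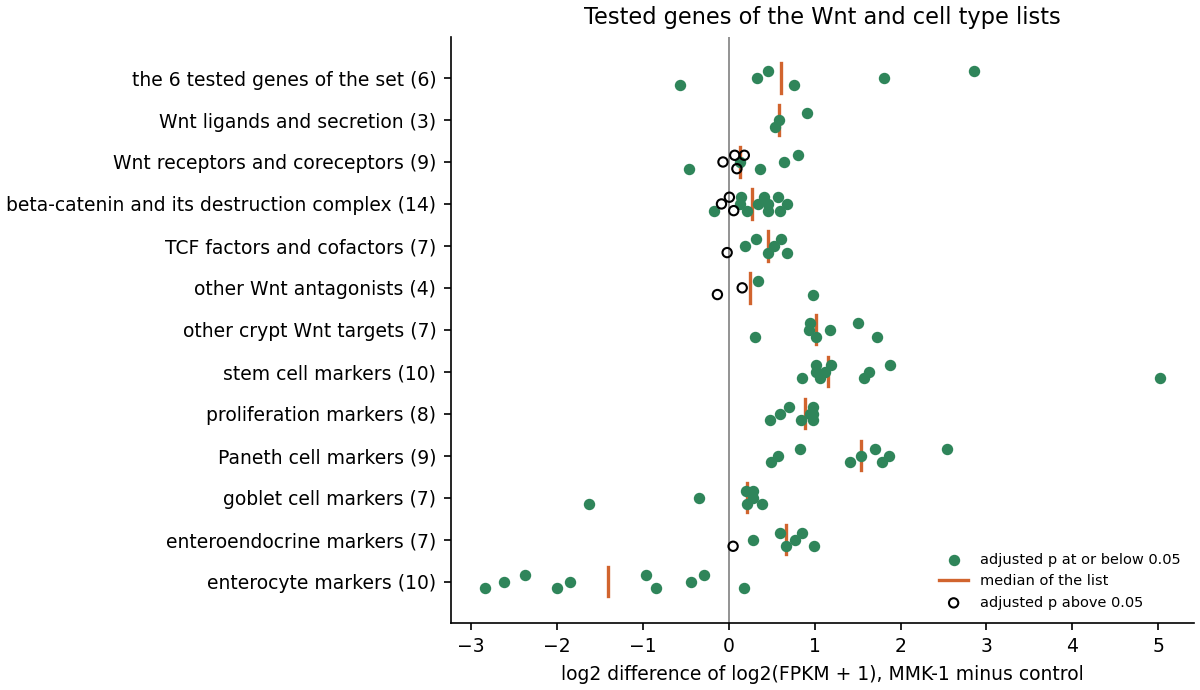
Log2 difference of log2(FPKM + 1), MMK-1 minus Control, for the tested genes of each list (number in brackets), with filled points at an adjusted p of at most 0.05, open points above it and an orange line at the median of the list. The median is 0.61 for the 6 tested genes of the set, 1.02 for other crypt targets, 1.15 for stem cell markers, 1.54 for Paneth cell markers and -1.41 for enterocyte markers. Ascl2 stands in the lists of other crypt targets and of stem cell markers.

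Markers of the cells that carry these genes moved in the same libraries, and their part in the values above was not tested. The 10 stem cell markers were called higher (median log2 difference 1.15, or 1.12 over the 9 without Msi1, which passed the filter through the MMK-1 group alone), and their summed FPKM was 97.5 to 98.4 in Control and 435 to 461 with MMK-1. Ascl2 is in this list and also in that of other crypt targets, so these lists are not separate. Olfm4, the stem cell marker with the largest change, had 444, 458 and 444 fragments in Control and 17597, 17851 and 16238 with MMK-1. All 9 Paneth cell markers were higher (median 1.54, summed FPKM 413 to 464 and 1316 to 1452), as were all 8 proliferation markers (median 0.89, summed FPKM 202 to 204 and 325 to 348). Enterocyte markers went the other way, with 9 of 10 lower and 1 higher (median -1.41, summed FPKM 9435 to 9543 and 5248 to 5658). The higher gene was Fabp1, which was not called after upper-quartile scaling (log2 difference 0.02, adjusted p = 0.778 in the limma test). Of goblet cell markers 5 of 7 were higher and 2 lower, against 2 higher and 2 lower after upper-quartile scaling. Of enteroendocrine markers 6 of 7 were higher and 0 lower, against 5 and 0 after this scaling. Over all genes tested 48.5% were higher and 24.7% lower, or 34.8% and 37% after this scaling, so the goblet counts after scaling do not stand out.

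The labelled tissue was checked against epithelial and other markers. Epcam, the general epithelial marker, was at 392 ± 1.79 (SD, n = 3) in Control and 391 ± 20.9 (SD, n = 3) with MMK-1, and after upper-quartile scaling it was called lower (log2 difference -0.16, adjusted p = 0.00398 in the limma test). Of the 9 epithelial markers 4 were higher and 4 lower, or 3 and 5 after upper-quartile scaling, beside the shares over all genes given above. No mesenchymal marker passed the filter, with a summed FPKM of 1.19 to 1.22 in Control and 0.359 to 0.465 with MMK-1, and no enteric glial marker passed it (0.249 to 0.388 and 0.280 to 0.365). Pdgfrb was the largest part of the mesenchymal sum in both groups, with 264, 246 and 243 fragments in Control and 51, 55 and 70 with MMK-1 (adjusted p = 4.7e-05 in the limma fit without the filter), while Grem1 had 0 to 2 fragments a library. The immune list summed to 5.38 to 6.19 in Control and 1.77 to 2.89 with MMK-1, nearly all from Cd68 and Itgam, which were both called lower, the latter passing the filter through Control alone. Csf1r, a receptor of macrophages, had 20, 23 and 23 fragments in Control and 0, 1 and 2 with MMK-1 (adjusted p = 8.4e-05 in the limma fit without the filter), while Ptprc, which is on all leukocytes, had at most 3 fragments in any library. The endothelial list summed to 3.62 to 4.40 and 7.88 to 8.09, nearly all from Lyve1, and Kdr was at 0 in all libraries. Tuft cell markers did not pass the filter either (1.14 to 1.23 and 1.72 to 1.95).

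Without MMK-1 replicate 3, which stood apart, the log2 differences were 2.91 for Lgr5, 1.77 for Axin2, 0.69 for Znrf3, 0.46 for Rnf43, 0.36 for Lgr4 and -0.61 for Apcdd1, and all 6 calls were kept in the limma test.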

How the data were processed

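RNA of 6 organoid libraries, 3 per group, was sequenced by the authors as paired ends, and the authors deposited 1 table of FPKM values. The submitters' processing notes name HISAT2, HTSeq, R 3.2.0, DESeq2 and the build mm10, with no version for the others, and the strand setting and the annotation are not given in the sources used here. The table carried no comparison of groups. Groups came from the sample titles.

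The whole fragments behind each value were recovered from the FPKM, which are whole multiples of 1 step per gene and library. All of the nonzero values gave a whole number within 0.1, and 99.7% of each library total fell on listed genes. A factor shared by all 6 fragment numbers of a gene cannot be told from its length. Intervals of fragments cover counting error only.

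Differences were fitted with limma 3.58.1 in R 4.3.3 (limma-trend on log2(FPKM + 1), mean FPKM of at least 1, Benjamini-Hochberg adjustment over 10551 genes). Single ratios used exact two-sided permutation tests in scipy 1.17.1, and plots used matplotlib 3.10.9 under Python 3.11.15. Positions came from GENCODE vM21 on GRCm38 and promoters from RefSeq. No promoter window of Lgr5, Znrf3, Notum or Apcdd1 was searched. The recovery and the fits were tested on simulated data. Alternatives covered scaling, unit, filter, pseudocount, limma-voom on fragments, a replicate block, GC and length trends, the fold threshold and leaving out each library. Fits without the filter other than the plain one were added after seeing the data.

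All 10 genes are given. From each list, up to 2 tested genes that changed most upward and 2 that changed most downward were to be named, and not all are given singly. The members and lists were chosen with earlier results of these data known. Of the list genes, 16 were not among the 21397 genes with values and so were not analysed here, Rspo2 and Lgr6 among them. Genes of the formyl peptide receptor family were not analysed here.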

Additional observations from a re-analysis of the deposited data

How the results depend on the processing

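The count of 6 called genes was 6 under both scalings, a pseudocount of 0.1, limma-voom, the replicate block, removal of GC or length trends and without any 1 library, 7 with TPM, where Sp5 passed the filter through its higher MMK-1 values, so that its call there supports nothing, and 9 without the filter (8 with upper-quartile scaling added). The count of 2 genes past a fold change of 2 was 3 with TPM (Sp5 added in the same way), with a pseudocount of 0.1 or limma-voom (Znrf3 added), and at a threshold of 1.5. Each of the 6 tested genes kept its direction and call in all 15 alternatives, with log2 differences of 2.68 to 3.37 for Lgr5, 1.62 to 2.04 for Axin2, 0.55 to 1.16 for Znrf3, 0.28 to 0.49 for Rnf43, 0.14 to 0.36 for Lgr4 and -0.79 to -0.51 for Apcdd1. Sp5 and Tnfrsf19 kept their calls in all alternatives run for them, while those of Nkd1 and Notum depended on single libraries.

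The replicate numbers did not pair the libraries, since deviations of libraries with the same number correlated at 0.0253, -0.04 and 0.0279. With the replicate block the counts were 6 and 2 genes, and no call of the 10 genes changed, with or without the filter. Depth limits Nkd1, with 7 fragments in Control and 26 with MMK-1 over all libraries.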

Other observations

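Several genes of the pathway lists lay below the filter and had groups that were far apart in fragments, and they are named here after their values were seen. Fzd2, a Wnt receptor, had 14, 13 and 10 fragments in Control and 115, 145 and 134 with MMK-1 (adjusted p = 5.1e-05 in the limma-trend fit without the filter). Sfrp5, a secreted antagonist that binds Wnt ligands, had 5, 2 and 7 fragments in Control and 17, 18 and 23 with MMK-1 (adjusted p = 0.00143 in the same limma fit). Dkk4, a secreted antagonist that binds LRP5 and LRP6, went the other way, with 10, 23 and 17 fragments in Control and 3, 1 and 1 with MMK-1 (adjusted p = 0.00871). Dkk4 was thus lower together with Apcdd1, while Sfrp5, Igfbp4 and Kremen1 were higher as the values were deposited. Wnt4 had 15, 10 and 5 fragments in Control and 1, 0 and 1 with MMK-1 (adjusted p = 0.0261).

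Of the TCF genes, Tcf7 had 189, 127 and 132 fragments in Control and 407, 388 and 522 with MMK-1 (adjusted p = 9.9e-04 in the limma-trend fit without the filter). Lef1 was at 0 fragments in Control and at 1, 2 and 3 with MMK-1 (adjusted p = 0.0928), which is too few to tell the groups apart. Tcf7l1 had at most 6 fragments in any library.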
